A study of Mus musculus with 12 samples.

Results

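The 36 genes described here encode the machinery that charges tRNAs and starts translation in the cytosol: 20 subunits of the cytosolic aminoacyl-tRNA synthetases, the 3 scaffold proteins of the multisynthetase complex, the tRNA export receptor Xpot, and 12 translation initiation factors. They were chosen by name from the gene column of the expression table, where all 36 were found among 21671 genes, and all 36 were among the 9745 genes that passed the filter on low values. RNA-seq was performed on FL5.12, an interleukin-3-dependent murine lymphoid precursor line of BALB/c origin, transduced with a retroviral vector for constitutive expression of MycER, a MYC chimera that becomes active with 4-hydroxytamoxifen (OHT). Every group carried MycER and there was no parental line among these libraries, so an effect of OHT itself cannot be told apart from that of MycER activity. The 4 groups, each of 3 libraries, were untreated cells; cells with 100 nM OHT for 72 h (OHT, or MYC-primed); cells with 135 nM IACS-010759 for 24 h (IACS), a small-molecule inhibitor of respiratory complex I; and cells that received the same dose of IACS-010759 for the last 24 h of the 72 h with OHT (OHT_IACS). For experiments with the drug, cells had been passaged in low-glucose medium. Comparing IACS with untreated and OHT_IACS with OHT asks how these genes responded to inhibition of the electron transport chain in nonprimed and in MYC-primed cells.

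An aminoacyl-tRNA synthetase joins an amino acid to its tRNA. In animal cells several of these enzymes are bound together in the multisynthetase complex, while the others act as free enzymes. Translation starts when eIF2, loaded with GTP and initiator tRNA, joins the small ribosomal subunit, while the eIF4 factors bring in the capped mRNA. The exchange factor eIF2B reloads eIF2 with GTP, and phosphorylation of eIF2 in the Integrated Stress Response (ISR) blocks that exchange, which lowers general translation but favors translation of the transcription factor ATF4. Many cytosolic synthetase genes are known ATF4 targets, and many translation factor genes are known MYC targets.

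Values are RPKM as deposited, that is, reads scaled by gene length and by library total. Library totals recovered from the steps of the RPKM values ranged from 10376530 to 14550158, of which 4199265 to 5762339 reads lay on genes. The members had 304 to 5464 reads per library, so that counting error was at most 5.74%. Their mean RPKM ranged from 7.84 for Eif2b3 to 95.7 for Eif4a1. The smallest totals were those of OHT replicates 1 and 3 and IACS replicate 3, at 0.776, 0.805 and 0.832 of untreated replicate 1, whereas OHT replicate 2 was at 1.043. Eif4a1, the member with most reads per base, had 2112 to 2346 reads in all 12 libraries although the totals differed. Its RPKM was therefore higher where the total was lower. Within groups, the median slope of log2 reads on log2 total was 1.38 in genes under 0.1 reads per base and 0.18 over 1. It was 0.91 at 0.3 to 0.5 and 0.59 at 0.5 to 1 reads per base, where 17 and 13 members lay. A slope under 1 gives a higher RPKM at a lower total. Each call was therefore also made in a fit with the log2 of the library total as a further term, referred to as the covariate. Among 12 genes of B-lymphoid progenitors, 4 reached an RPKM of 1: Csf2rb, a chain of the interleukin-3 receptor, at 39.8 to 48.5, Il3ra, Cd79a and Cd79b. Pax5, Il7r, Dntt and Rag1 were at 0. Markers of erythroid cells and fibroblasts summed to at most 0.343 in any library and those of T cells to at most 2.34. Of 4 myeloid markers 2 reached an RPKM of 1, mainly Mpo, and their sum was 14.0 to 15.5 in untreated, 11.7 to 14.4 in IACS, 9.75 to 12.3 in OHT and 9.28 to 10.3 in OHT_IACS libraries, and their part in the results was not tested. In RNA from whole cultures, a change in the share of cells and a change in the RNA of each cell cannot be told apart.

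**Figure D1:**
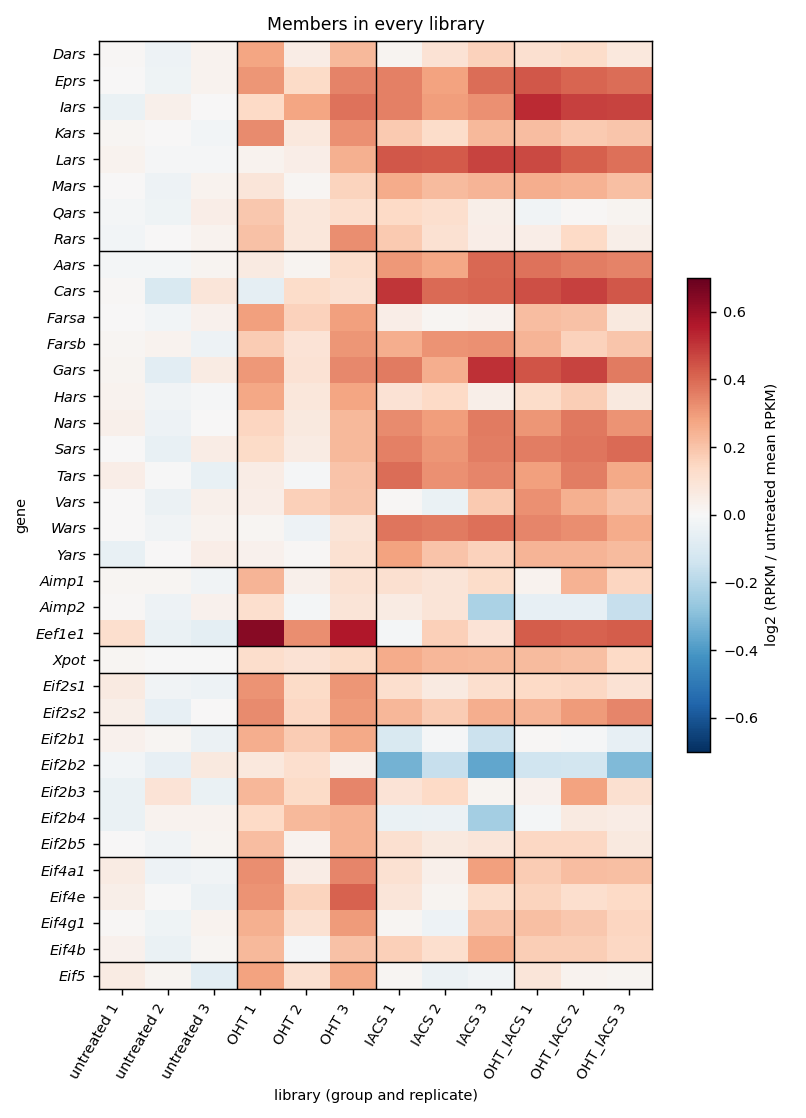
Each row is a gene, ordered by role, and each column a library. Color gives the log2 ratio of the deposited RPKM to the mean of the 3 untreated libraries, from -0.36 to 0.64. Most synthetases were darkest in the IACS and OHT_IACS libraries, Eif2b2 was the bluest row there, and OHT replicate 2 was paler than the other OHT libraries.

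In nonprimed cells, 13 of 20 synthetase mRNAs rose with IACS-010759. Of 12 initiation factor mRNAs 0 rose, which in so small a group is near the share of all tested genes. Among them Eif2s2 came close, with a limma adjusted p of 0.054. In IACS against untreated, 14 of 36 members (38.9%) rose and 1 (2.78%) fell, where 8.15% of all tested genes rose and 7.74% fell (limma on log2 values, Benjamini-Hochberg adjusted p under 0.05 over all 9745 genes). These are 794 and 754 genes, and 867 and 469 without rescaling of the libraries. The 14 were 13 of the 20 synthetases (65%) and Xpot. The median log2 fold change was 0.28 over the synthetases and 0.05 over the 12 initiation factors, beside 0.004 over all tested genes, and 0.22 and -0.03 with the covariate. The difference between both groups of genes was not tested. In 21 members every IACS library lay above every untreated library and in 1 every one lay below, compared with 24% and 13.5% of all genes.

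Lars, which charges leucine tRNA, had the largest change. It was at 32.6, 31.9 and 31.9 RPKM in the untreated libraries, 43.4, 43.2 and 44.6 with IACS, 32.6, 33.2 and 38.1 with OHT, and 44.3, 42.9 and 41.9 with OHT_IACS. Both groups with the drug lay above both groups without it, with no overlap. The log2 fold change was 0.41 ± 0.06 (SE, n = 3 libraries a group) in nonprimed cells, with a limma adjusted p of 0.00034. Cars, the cysteinyl-tRNA synthetase (chr7:143557230-143600090, minus strand, GRCm38), was a gene of lower level. Its values were 16.9, 15.6 and 17.8 RPKM untreated, 23.8, 22.1 and 22.3 with IACS, 16.1, 18.4 and 18.1 with OHT, and 23.0, 23.4 and 22.7 with OHT_IACS. Again the drug alone separated the libraries, and the untreated and OHT libraries overlapped. The increase with IACS was 0.41 ± 0.05 (SE), with a limma adjusted p of 0.00023. Wars, the tryptophanyl-tRNA synthetase (chr12:108860030-108894174, minus strand), was at 35.3, 34.7 and 35.9 RPKM untreated, 45.8, 45.5 and 46.2 with IACS, 35.7, 34.5 and 37.6 with OHT, and 44.7, 44.2 and 42.2 with OHT_IACS. The 3 IACS libraries differed from each other by less than 1 RPKM, and all 6 libraries with the drug lay above all 6 without it. Its log2 fold change was 0.35 ± 0.05 (SE), with a limma adjusted p of 0.00048.

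Other synthetases rose by similar amounts. By limma with Benjamini-Hochberg adjustment, the log2 increases in nonprimed cells were 0.35 ± 0.08 (SE) for Gars, the glycyl-tRNA synthetase (adjusted p = 0.014), 0.32 ± 0.06 for Tars, which charges threonine tRNA (0.0027), and 0.32 ± 0.06 for Eprs, which joins both glutamate and proline to their tRNAs (0.0056). Sars, the seryl-tRNA synthetase, rose by 0.31 ± 0.05 (SE, limma adjusted p = 0.0018), Nars, for asparagine, by 0.30 ± 0.06 (0.0038), and Aars, for alanine, by 0.30 ± 0.06 (0.003). Iars, Farsb, Mars and Yars, for isoleucine, phenylalanine, methionine and tyrosine, and Xpot, which carries mature tRNA out of the nucleus, rose as well. With 1 library left out, the calls of Gars (without untreated replicate 2 or IACS replicate 3), Mars (untreated replicate 2) and Yars (untreated or IACS replicate 1) were lost, with limma adjusted p up to 0.062, 0.052 and 0.068. Nars was the free synthetase with the highest mean level, at 48.4, 46.1 and 47.2 RPKM untreated, 52.3, 49.4 and 55.2 with OHT, 59.4, 57.9 and 60.8 with IACS, and 58.4, 60.9 and 58.8 with OHT_IACS. Its libraries with the drug all lay above the others. Xpot was at 31.6, 31.2 and 31.2 RPKM untreated, 34.1, 33.6 and 34.4 with OHT, 37.5, 36.8 and 36.7 with IACS, and 36.5, 36.2 and 34.5 with OHT_IACS. The untreated libraries were the lowest of the 12, and the IACS libraries the highest.

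The synthetases that were not called in nonprimed cells were Dars, Farsa, Hars, Kars, Qars, Rars and Vars. Kars, the lysyl-tRNA synthetase and the highest of the multisynthetase complex by mean level, was at 46.8, 46.4 and 45.7 RPKM untreated, 52.6, 50.6 and 54.2 with IACS, 58.2, 48.7 and 57.8 with OHT, and 53.8, 52.5 and 53.0 with OHT_IACS. Its untreated libraries were the lowest of all 12, but the log2 difference of IACS from untreated, 0.15 ± 0.07 (SE), did not pass the test. Farsa and Farsb encode the alpha and beta subunits of the same enzyme, and of this pair only Farsb passed the test in nonprimed cells, with log2 fold changes of 0.27 for Farsb and -0.003 for Farsa. The difference between the pair was not tested. Of the 8 synthetases of the multisynthetase complex 4 rose, and of the 12 free ones 9 rose, a difference that was not tested. None of the 3 scaffold genes, Aimp1, Aimp2 and Eef1e1, was called in either direction, and none had an unadjusted p under 0.05. Aimp1, the scaffold gene with the highest mean level, was at 37.2, 37.2 and 36.3 RPKM untreated, 43.5, 37.8 and 39.7 with OHT, 39.9, 39.3 and 40.3 with IACS, and 37.5, 43.6 and 41.0 with OHT_IACS. Its untreated libraries were the lowest, and the other groups overlapped each other. By structural class of the enzyme, a split chosen after the values were seen, 7 of 10 class I and 6 of 10 class II synthetase subunits rose. Whether the calls go with the class was not tested. Eprs, which serves both glutamate and proline, was counted in class I only.

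**Figure D2:**
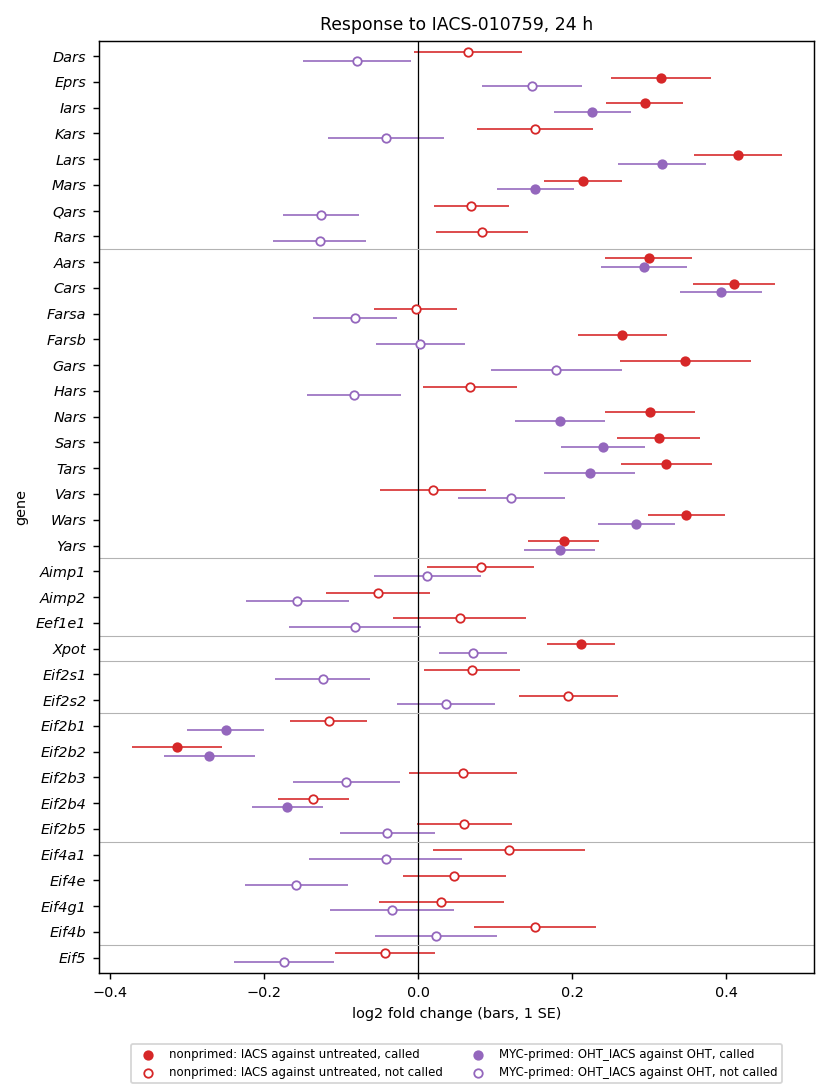
Points give the log2 fold change of each member with IACS-010759 and bars 1 SE (n = 3 libraries a group), in red for nonprimed cells (IACS against untreated) and in purple for MYC-primed cells (OHT_IACS against OHT). Filled points passed the test. Filled synthetase points lie to the right of 0 and filled eIF2B points to the left.

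In MYC-primed cells, 10 of the 20 synthetases rose with the drug. In OHT_IACS against OHT, 10 of 36 members (27.8%) rose and 3 (8.33%) fell, where 11.9% of all tested genes rose and 11.8% fell, so that the share of members that fell was below that of all genes. All 10 were synthetases that had also risen in nonprimed cells, a comparison that shares no library with this one. Both tests, however, used the same estimate of each gene's spread from all 12 libraries, so their calls are not independent. With only the libraries of the groups compared, 6 synthetases were called here. By limma the increases were 0.39 ± 0.05 (SE) for Cars (adjusted p = 0.00022), 0.32 ± 0.06 for Lars (0.0017), 0.29 ± 0.06 for Aars (0.0026) and 0.28 ± 0.05 for Wars (0.0016). Sars rose by 0.24 ± 0.05 (SE, limma adjusted p = 0.0066), Iars by 0.23 ± 0.05 (0.0065) and Tars by 0.22 ± 0.06 (0.016). Nars, Yars and Mars rose by less. The calls of Mars and Nars were lost on leaving out 1 library, for at least 1 library of every group, that of Tars without OHT_IACS replicate 2, and those of Tars and Yars in a fit of these 2 groups alone, with limma adjusted p up to 0.14, 0.12, 0.064 and 0.055. In 14 members every OHT_IACS library lay above every OHT library and in 7 every one lay below, compared with 16.6% and 18.5% of all genes. Over all 20 synthetases the median log2 fold change was 0.17, and over the 36 members it was -0.015.

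Gars, Eprs, Farsb and Xpot were called in nonprimed cells only. Their difference between both responses was not shown: in the interaction of OHT and IACS, no member was called by limma, where 14 of all genes (0.144%) were called higher and 0 lower. The smallest adjusted p of a member was 0.23, for Farsb, whose log2 response in primed minus nonprimed cells was -0.26 ± 0.08 (SE). In 34 of 36 members the interaction was negative, with a median of -0.12, and in 6 of them the unadjusted p was under 0.05 (Farsb, Qars, Rars, Xpot, Eif2s1 and Eif4e). Of all tested genes, 53.5% had a negative interaction and 12.7% an unadjusted p under 0.05, with a median of -0.015. With the covariate the median over the members was -0.038, and without OHT replicate 2, which lay nearer to the untreated libraries, 2 members were called, Farsb and Rars.

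Short motifs were looked up in RefSeq promoter windows of GRCm38.p6, which span 250 bases before to 50 after a start and were found for 28 members. Cars, Hars, Lars, Nars, Rars, Vars, Wars and Eif2b3 had no entry. TGATGNAA, the core of the composite site that ATF4 binds with C/EBP proteins, was present on either strand in the windows of 5 of the 9 synthetases that rose in nonprimed cells and had a window, namely Aars, Gars, Iars, Tars and Yars. It was in 0 of 4 synthetases that were not called, 0 of 4 scaffold and export genes and 0 of 11 initiation factors, and in 4.51% of 27025 genes. 1 match in each of these 5 genes is shown within a stretch of 30 bases on the strand of the gene because, among the 28 members with a window, the motif was found only in synthetases that rose. Capitals mark the motif or its reverse complement, and positions give its first base relative to the start base, counted as 0.
Aars at 9, chr8:111033840-111033869, plus strand: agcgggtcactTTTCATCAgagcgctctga
Gars at -30, chr6:55037960-55037989, plus strand: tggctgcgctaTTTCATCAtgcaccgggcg
Iars at 7, chr13:49682126-49682155, plus strand: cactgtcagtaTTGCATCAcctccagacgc
Tars at -15, chr15:11399655-11399684, minus strand: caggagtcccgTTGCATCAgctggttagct
Yars at 3, chr4:129189895-129189924, plus strand: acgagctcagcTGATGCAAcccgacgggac
A match describes the letters of the window and does not show binding in these cells. Whether this motif goes with the calls was not tested. Only 4 synthetases that were not called had a window, and Cars, Lars, Nars and Wars, which rose, had none.

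The members that fell with IACS-010759 were Eif2b2 in both responses and Eif2b1 and Eif2b4 in primed cells, no larger a share of the 36 than the 7.74% and 11.8% of all genes that fell. They encode the 3 regulatory subunits of eIF2B, and their difference from the catalytic subunits was not tested. Eif2b2, which encodes the regulatory beta subunit (chr12:85219481-85226628, plus strand), was at 22.1, 21.5 and 23.5 RPKM untreated, 23.6, 24.3 and 23.0 with OHT, 17.8, 20.0 and 17.4 with IACS, and 20.3, 20.5 and 18.1 with OHT_IACS. All 6 libraries with the drug lay below all 6 without it. It fell by 0.31 ± 0.06 (SE) on the log2 scale in nonprimed cells (limma adjusted p = 0.0032) and by 0.27 ± 0.06 in primed cells (0.0055). Eif2b1, the regulatory alpha subunit, was at 28.9, 28.6 and 27.5 RPKM untreated, 33.8, 32.0 and 34.0 with OHT, 26.3, 28.1 and 25.5 with IACS, and 28.5, 28.1 and 27.2 with OHT_IACS. The OHT libraries stood above all others. It rose by 0.21 ± 0.05 (SE) with OHT (limma adjusted p = 0.0055) and fell by 0.25 ± 0.05 in OHT_IACS against OHT (0.0035), 2 comparisons that share the OHT libraries. Eif2b4, the regulatory delta subunit, was at 24.9, 26.1 and 26.1 RPKM untreated, 28.3, 30.1 and 30.4 with OHT, 24.9, 25.0 and 21.8 with IACS, and 25.5, 26.8 and 26.6 with OHT_IACS. Its OHT libraries were again the highest, and the untreated and IACS libraries overlapped. It rose by 0.18 ± 0.05 (SE) with OHT (limma adjusted p = 0.0078) and fell by 0.17 ± 0.05 in OHT_IACS against OHT (0.017), a call that was lost without OHT replicate 3 or OHT_IACS replicate 1, by quantile normalization and in a fit of these groups alone (limma adjusted p up to 0.089). Without OHT replicate 2, 11 members were lower in OHT_IACS than in OHT, in place of 3. Of the 9745 tested genes, 1550 were then lower, in place of 1146, so that in this fit the share was larger among the members.

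The subunits that form the catalytic part of eIF2B, Eif2b3 and Eif2b5, were not called in either response to the drug. Eif2b5, the highest eIF2B subunit by mean level, was at 39.2, 38.5 and 39.6 RPKM untreated, 45.4, 39.8 and 46.3 with OHT, 42.3, 41.0 and 41.4 with IACS, and 43.2, 43.3 and 41.0 with OHT_IACS. Its untreated libraries were the lowest, and its log2 differences with the drug were 0.06 ± 0.06 (SE) in nonprimed and -0.04 ± 0.06 in primed cells. For eIF2 itself, Eif2s1, the alpha subunit that ISR kinases phosphorylate, was at 33.8, 31.8 and 31.6 RPKM untreated, 35.2, 33.8 and 35.1 with IACS, 40.3, 35.6 and 40.2 with OHT, and 35.7, 35.8 and 34.7 with OHT_IACS. Its untreated and IACS ranges overlapped, and without the covariate it was not called in either response to IACS. Eif2s2, the beta subunit, came nearest to a call among the initiation factors not called in nonprimed cells, with a log2 difference of 0.19 ± 0.06 (SE) and a limma adjusted p of 0.054, and it passed the threshold under 9 of 24 alternatives, whose adjusted p is given with the processing limits. With it, 1 initiation factor was higher at an unadjusted p under 0.05 in nonprimed cells and 1 by limma voom on recovered reads, whereas in primed cells there were 0 by either.

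Eif4a1, the helicase of the cap-binding complex, was at 89.6, 83.9 and 84.7 RPKM untreated, 92.6, 88.4 and 105 with IACS, 108, 89.4 and 109 with OHT, and 97.4, 99.9 and 99.5 with OHT_IACS. The 3 values above 100 belonged to the 3 libraries with the smallest totals. Eif4e is the cap-binding protein, Eif4g1 the scaffold that joins it to Eif4a1, and Eif4b stimulates the helicase. Without the covariate, none of them was called in either response to IACS. Eif5, which promotes GTP hydrolysis by eIF2, was at 45.3, 44.1 and 41.4 RPKM untreated, 44.0, 42.4 and 42.9 with IACS, 53.0, 47.1 and 52.4 with OHT, and 46.3, 44.4 and 44.2 with OHT_IACS. Its untreated and IACS libraries overlapped, and its OHT libraries lay above all others.

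**Figure D3:**
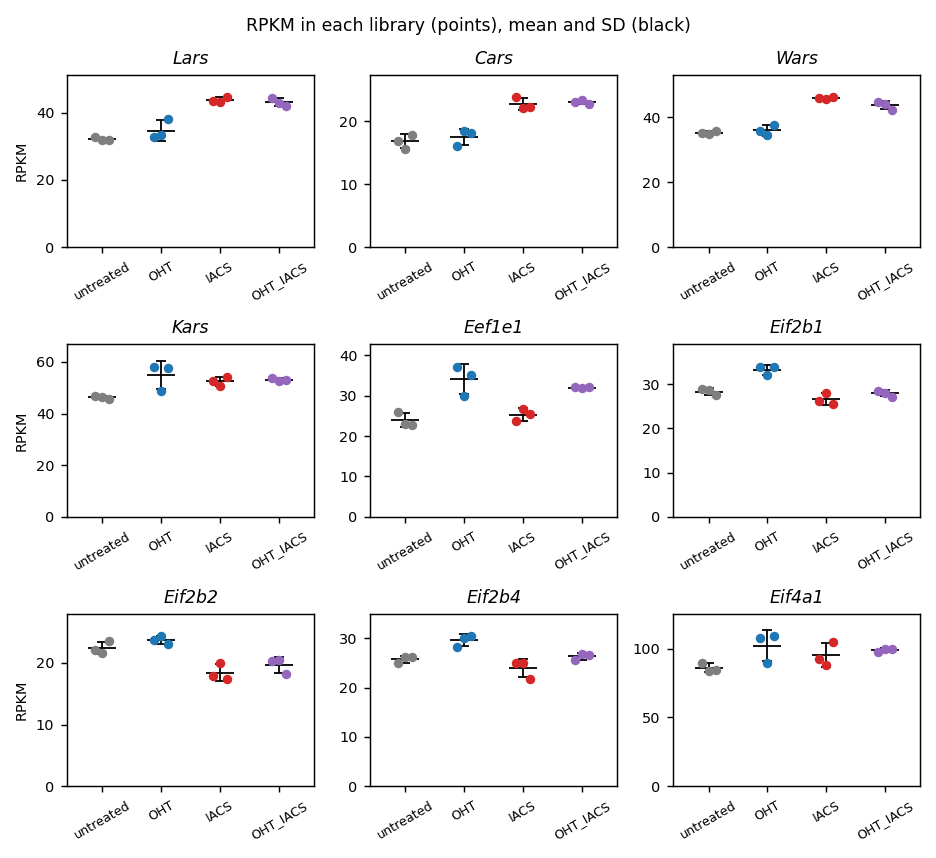
Points are the deposited RPKM of single libraries, black lines the mean and bars the SD (n = 3), with every axis starting at 0. Lars, Cars and Wars were higher in both groups with the drug, Eif2b2 was lower in both, and Kars and Eif4a1 had 1 lower point among the OHT libraries, replicate 2.

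With OHT alone all 36 members had higher values, and 15 of them rose, of which 12 were not called with the covariate. In OHT against untreated, 15 of 36 members (41.7%) rose and 0 fell, where 18.2% of all tested genes rose and 18.2% fell. The members that rose were 7 synthetases (Eprs, Farsa, Farsb, Hars, Iars, Kars and Rars), the scaffold gene Eef1e1 and 7 of 12 initiation factors (Eif2s1, Eif2s2, Eif2b1, Eif2b3, Eif2b4, Eif4e and Eif5). At an unadjusted p under 0.05 and by limma voom on recovered reads 0 members were lower. In 26 members every OHT library lay above every untreated library, and in 0 below, compared with 25.4% and 20.4% of all genes. The median log2 fold change was 0.17 over the members and 0.013 over all genes.

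Relative to the untreated mean, the median of the rescaled members was 0.23 and 0.20 on the log2 scale in OHT replicates 1 and 3, and 0.04 in replicate 2, the OHT library with the larger total. With the covariate, the member median fell from 0.17 to 0.05 and 3 members remained called, namely Eef1e1, Iars and Eif2b4. With 1 library left out, 26 members rose without OHT replicate 2, and 9 without OHT replicate 1, OHT replicate 3 or untreated replicate 3. Of the 9745 tested genes, 2255 rose without OHT replicate 2, and 1492, 1242 and 1264 in the other fits, beside 1769 with all libraries. The part of the library totals in the other 12 calls was not tested further. In both responses to IACS, all 15 and all 13 members called were also called with the covariate. In primed cells the fit with the covariate also called Eprs and Gars higher, and Eif2s1, Eif4e and Eif5 lower. By that fit 12 of 36 members rose and 6 fell there, where 1321 and 1457 of the 9745 genes did.

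Eef1e1, a scaffold protein of the multisynthetase complex (chr13:38644207-38659058, minus strand), had the largest change with OHT. It was at 25.9, 23.1 and 22.8 RPKM untreated, 37.2, 29.9 and 35.2 with OHT, 23.7, 26.8 and 25.5 with IACS, and 32.1, 31.8 and 32.1 with OHT_IACS. Both groups with OHT lay above both without it, with no overlap. By limma it rose by 0.48 ± 0.09 (SE) in OHT against untreated (limma adjusted p = 0.00077), by 0.30 with the covariate, and by 0.35 ± 0.09 in OHT_IACS against IACS (0.0096). Iars rose by 0.24 ± 0.05 (SE) with OHT (limma adjusted p = 0.0021), and by 0.23 with the covariate. Eif4e, the second largest change, Eprs, Eif2s2, Eif2s1, Farsa and Kars were also called. Their log2 changes of 0.22 to 0.27 became 0.04 to 0.13 with the covariate, and none of these was then called.

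**Figure D4:**
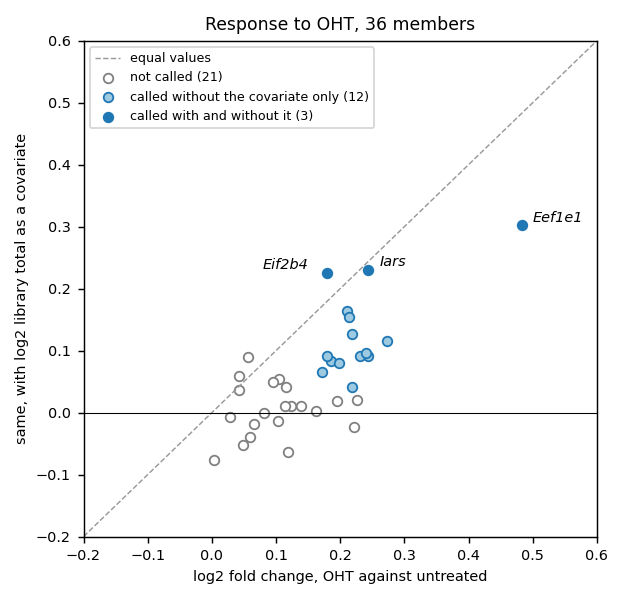
Each point is a member, with the log2 fold change of OHT against untreated on the horizontal axis and the same value from the fit with the covariate, the log2 library total, on the vertical axis. Most of the 36 points lie below the dashed line of equal values, and Eef1e1, Iars and Eif2b4 are the 3 called in both fits.

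Among cells given IACS-010759, the share of members higher in primed than in nonprimed cells was near that of all genes. In OHT_IACS against IACS, 4 of 36 members (11.1%) rose, namely Eef1e1, Vars, Iars and Eif2b4, and 0 fell, where 12.3% of all tested genes rose and 14.2% fell. Vars, the valyl-tRNA synthetase, was at 42.1, 40.4 and 47.4 RPKM with IACS and 52.2, 49.6 and 48.2 with OHT_IACS, and rose by 0.22 ± 0.07 (SE, limma adjusted p = 0.032). Iars rose by 0.18 ± 0.05 (SE, limma adjusted p = 0.02) and Eif2b4 by 0.15 ± 0.05 (0.03). Of these calls only that of Eef1e1 held under every alternative, and leaving out any of IACS replicates 1 and 2 and the 3 OHT_IACS libraries left 2 members called. At an unadjusted p under 0.05 and by limma voom on recovered reads 0 members were lower. In 7 members every OHT_IACS library lay above every IACS library and in 4 every one lay below, compared with 19.3% and 21.1% of all genes.

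CACGTG, the canonical E-box that MYC binds, was in the windows of 8 of 28 members, compared with 8.09% of 27025 genes. They were Aars, Farsb, Iars, Tars, Xpot, Eif4a1, Eif4e and Eif4g1. Of these, Farsb, Iars and Eif4e were called with OHT, Farsb and Eif4e only without the covariate. The others with an E-box, Aars, Tars, Xpot, Eif4a1 and Eif4g1, were not called with OHT. Eprs, Farsa, Kars, Eef1e1, Eif2s1, Eif2s2, Eif2b1, Eif2b4 and Eif5 were called and had a window without it. Whether the E-box goes with the calls was not tested. The matches of Farsb, Iars and Eif4e are shown on the strand of the gene with the E-box in capitals.
Farsb at -39, chr1:78488919-78488948, minus strand: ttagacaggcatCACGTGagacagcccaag
Iars at -69, chr13:49682049-49682078, plus strand: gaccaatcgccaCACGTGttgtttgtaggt
Eif4e at -228, chr3:138527028-138527057, plus strand: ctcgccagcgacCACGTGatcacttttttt
Eif4e at -64, chr3:138527192-138527221, plus strand: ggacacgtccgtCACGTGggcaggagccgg
The E-box is its own reverse complement. Iars was the only member with both motifs among those called with OHT and with IACS in nonprimed cells that had a window, which were Eprs, Farsb and Iars.

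Across the 4 groups, 30 of 36 members had their lowest mean RPKM in untreated cells, as did 31.6% of all tested genes. The highest mean was in OHT for 18 members, in OHT_IACS for 11 and in IACS for 7, compared with 33.2%, 20.9% and 26% of all genes. These means are not adjusted for the library totals, 2 of which were larger in untreated cells than in any other library, and with the covariate 27 members were above 0 and 9 below 0 in OHT against untreated. Of the 15 members called with OHT and the 14 that rose with IACS in nonprimed cells, 3 were in both, but these comparisons share the untreated libraries.

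Related genes outside the 36 gave a scale for these changes. Of 17 mitochondrial synthetases tested, 5 rose and 2 fell in nonprimed cells and 4 rose and 2 fell in primed cells, where of all genes 8.15% rose and 7.74% fell in nonprimed and 11.9% and 11.8% in primed cells. Cars2, the mitochondrial cysteinyl-tRNA synthetase, fell by 0.66 ± 0.08 (SE) on the log2 scale in nonprimed cells and by 0.68 ± 0.08 in primed cells (limma adjusted p = 0.00011 and 5.6e-05), while the cytosolic Cars rose in both. Wars2 and Fars2, for tryptophan and phenylalanine, rose in nonprimed cells by 0.43 and 0.34. Of 30 other initiation factors 4 rose and 0 fell in nonprimed cells, among them Eif4ebp1, an inhibitor of Eif4e, at 0.32, and Eif4e3 and Eif3c at 0.26 each. Of 10 elongation and termination factors 1 rose, the elongation factor kinase Eef2k, at 0.32. The last 2 lists are small, and their shares lie near the 8.15% of all genes.

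The largest log2 changes were those of ISR genes outside translation. Of 16 known ATF4 targets that are no translation genes, 12 rose in nonprimed and 13 in primed cells and 0 fell. Of all tested genes, 8.15% rose and 7.74% fell in nonprimed and 11.9% and 11.8% in primed cells. The median log2 fold changes of these targets were 0.52 and 0.42, compared with 0.28 and 0.17 for the synthetases. Trib3, a pseudokinase, rose by 1.96 ± 0.10 (SE) in nonprimed cells (limma adjusted p = 7.8e-08), and the transcription factor gene Atf5 and the stress gene Nupr1 by 1.75 and 1.54. Of 8 genes of eIF2 phosphorylation 2 rose and 0 fell in each response. Ddit3, which encodes CHOP, rose in both, by 1.17 ± 0.07 (SE) in nonprimed and 0.76 ± 0.07 in primed cells (limma adjusted p = 1.2e-07 and 5.7e-06). The other was Ppp1r15a, which directs dephosphorylation of eIF2, at 0.39 in nonprimed cells, and Ppp1r15b, at 0.13, in primed cells. Ppp1r15a was not called in primed cells.

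Some members lie where reads could be shared with other genes, which was not measured. In the GRCm38 annotation, exons of 8 members overlap those of another protein-coding gene: Mars with Ddit3, Aimp2 with Eif2ak1, Farsb with Sgpp2, Hars with Hars2, Yars with C77080, Aimp1 with Tbck and Eif2b4 with Snx17 on the opposite strand, and Aars with Exosc6 on the same strand. The library kit marks strand, but whether counting used it is not given in the sources used here, so the increase of Mars and that of Ddit3 may share reads. Hars also resembles Hars2 in sequence, and Eif4a1 resembles Eif4a2 and processed pseudogenes, so their values are uncertain to that extent.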

How the data were processed

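RNA-seq libraries came from total RNA with a stranded kit, 12 in all, as 3 biological replicates for each of 4 groups taken from the labels. Per the submitters' processing notes, the authors used TopHat2 2.0.8, SAMtools, featureCounts 1.4.5-p1 and DESeq2 with the mouse build mm9, and deposited 1 table of RPKM values with 6 further columns of their own fold changes and adjusted p-values, which were not used. RPKM divides reads by gene length and library total, and genes with most reads per base gained few reads with the total (median slope of log2 reads on log2 total 0.18 over 1 read per base). At 0.5 to 1 and 0.3 to 0.5 reads per base, where most members lay, the median slope was 0.59 and 0.91. How duplicate reads were treated is not given in the sources used here, and the cause was not tested. The deposited values of all 15451 genes above 0 were whole reads within 0.001 reads, which gave the totals. As the file holds RPKM and no counts, log2(RPKM + 0.1) after median-ratio rescaling (divisors 0.9735 to 1.026) was fitted with limma 3.58.1 in R 4.3.3 over 4 groups, for genes reaching RPKM 1 in 3 or more libraries, and fold changes are on that scale, which understates low genes. Levels and overlap of groups use deposited RPKM. The tests were also run on simulated data with independent noise and no tie to the library totals. That run cannot show how such a tie affects the calls. Fold, SE and adjusted p were printed for at most the 10 largest changes called per comparison. Levels were printed for the 3 largest responses to IACS, the highest member of each role and members called in opposite directions, and from each related list at most 3 genes were named. Eif2b2, Eef1e1, Eif2s2, Vars and members named as not called were added after their values were seen. Members and gene lists were chosen with earlier results of these data known. Positions come from GENCODE vM21 and RefSeq (GRCm38), not from the authors' build. Alternatives changed the pseudocount, filter, scaling, variance model, samples, covariate or test. Some items are not reported here.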

Additional observations from a re-analysis of the deposited data

How the results depend on the processing

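Of the 47 calls on members, each under 24 alternatives, 1028 of 1128 values stayed past the threshold, 100 did not, and 0 changed sign. Calls past it under every alternative numbered 12 of 15 in IACS against untreated, 8 of 13 in OHT_IACS against OHT, 3 of 15 in OHT against untreated and 1 of 4 in OHT_IACS against IACS. Except where the covariate or the samples fitted show it, the cause was not tested. In OHT against untreated, genes called numbered 3546, and 5631 with weights per library and 2351 with the covariate. Members higher there went from 15 to 23 without rescaling, 28 with weights and 3 with the covariate. Synthetases went from 7 to 11, 15 and 1, and to 3 with only the groups compared, and initiation factors from 7 to 11 with weights and 1 with the covariate. The member median went from 0.167 to 0.055 by quantile normalization and 0.045 with the covariate. In IACS against untreated, 1548 genes became 2734 with weights, members lower went from 1 to 2 with an RPKM of at least 5 or quantile normalization and 3 with weights, and the median from 0.101 to 0.037 with the covariate. Initiation factors higher went from 0 to 1, Eif2s2, with an RPKM of at least 5, no rescaling, weights, only the groups compared, or voom, and to 2 by quantile normalization (adjusted p of Eif2s2 0.0081 to 0.18 over the alternatives). In OHT_IACS against OHT, 2310 genes became 4199 with weights, members and synthetases higher went from 10 to 6 with only the groups compared, and members lower from 3 to 12 with weights and 6 with the covariate. In OHT_IACS against IACS, members higher went from 4 to 2 with only the groups compared, and lower from 0 to 3 by quantile normalization and 2 with the covariate. The interaction count of 14 became 7 without a filter, 5 without rescaling, 34 by quantile normalization (29 higher and 5 lower), 1066 with weights (533 and 533), 5 with the covariate and 36 by voom, with 8 members lower with weights. Its member median of -0.123 became -0.047 by quantile normalization and -0.038 with the covariate. Correlations of same-numbered libraries ran from -0.172 to 0.104, and not every library correlated best with its own number. Between untreated and OHT, however, same-numbered libraries correlated at 0.083, 0.104 and 0.088 and all others at -0.08 to -0.009. Whether the replicate numbers pair samples was not tested further. The replicate block gave 1 initiation factor higher in IACS against untreated and 7 genes in the interaction, and changed no other count by over 1.5 times.
Leaving out 1 library at a time gave, in OHT against untreated, 2658 to 4126 genes, 9 to 26 members higher and 0 lower, 3 to 13 synthetases, 5 to 11 initiation factors and a median of 0.128 to 0.225. The highest counts came without OHT replicate 2. In IACS against untreated it gave 949 (without untreated replicate 1) to 1805 genes, 12 to 16 members higher, 1 to 2 lower, 11 to 14 synthetases, 0 to 1 initiation factors and a median of 0.084 to 0.141. In OHT_IACS against OHT it gave 1521 (without OHT_IACS replicate 3) to 2995 genes, 7 to 10 members higher, all synthetases, 2 to 11 lower and a median of -0.082 to 0.025, with 2995 genes, 11 lower and -0.082 without OHT replicate 2. In OHT_IACS against IACS it gave 1888 to 2837 genes, 2 to 5 members higher and a median of 0.009 to 0.066. In the interaction it gave 3 to 149 genes (97 higher and 52 lower without OHT replicate 2), 0 to 2 members lower (Farsb and Rars, without OHT replicate 2) and a median of -0.171 to -0.081.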
